A study of Homo sapiens with 6 samples.

Results

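The genes described here encode the machinery that copies DNA: 55 genes chosen by symbol from the deposited table, of 31164 genes in all, as parts of the replication machinery. The list was drawn up with earlier results of these data known, although its rule uses no measured value. They cover origin recognition and licensing, the MCM helicase and its activators, the replicative polymerases, the sliding clamp and its loader, the single-strand binding protein RPA, strand maturation, fork protection and chromatin assembly behind the fork. RNA came from 6 libraries labelled HT29, a long-established line of human colorectal cancer cells. In the 3 shNC libraries the cells carried a control hairpin RNA and are labelled wild type. In the 3 shHMGA1 libraries HMGA1, an architectural protein of chromatin with AT-hook motifs, was stably knocked down with a hairpin RNA, and neither group was treated further. The sources used here do not give the hairpin sequence, the number of hairpins or whether the lines were clones or pools.

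Before S phase, the origin recognition complex (ORC) together with CDC6 and CDT1 loads the ring of MCM2 to MCM7 onto DNA, and geminin (GMNN) blocks CDT1 so that loading is not repeated. The kinases CDC7 with DBF4 and CDK2 then recruit CDC45 and the GINS complex, which turn MCM into an active helicase. Polymerase alpha-primase starts each strand, PCNA holds polymerases epsilon and delta on it, and FEN1, DNA2 and LIG1 join the fragments of the lagging strand. Many of these genes are known targets of the E2F transcription factors and are transcribed late in G1 and in S phase.

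Summed FPKM per library ran from 807156 to 838067, which does not show sequencing depth (FPKM is the fragment count of a gene scaled for its transcript length and the size of the library). Correlations of log2(FPKM + 1) over all genes tested lay between 0.98 and 0.988 for libraries of 1 group and between 0.973 and 0.977 across groups. The targeted gene, HMGA1, measured 816 ± 35.1 FPKM in the control libraries and 513 ± 50.1 in the knockdown (SD, n = 3 each), which is 62.8% of the former. Its log2 fold change was -0.67 (adjusted p = 0.0018, limma), and an exact two-sided permutation test of the 6 values gave p = 0.1, the smallest that 3 against 3 allows. Of 12 markers of colon epithelium, 5 were at most 0.22 FPKM in every library: CDX1, VIL1, CDH17, CEACAM5 and LGALS4. These low values go against what the label of a colon line would lead one to look for, and the identity of the cells was not tested. KRT20 was low as well, at 0.84 to 1.14 FPKM. KRT8, KRT18, KRT19, EPCAM, CDH1 and CDX2 were present, from 7.12 FPKM for CDX2 up to 1565 for KRT8. The summed level of these 12 markers ran from 3478 to 3827 FPKM in shNC and from 3128 to 3321 in shHMGA1, and its part in the results was not tested. Its members did not move together: EPCAM rose (log2 fold change 0.35, adjusted p = 0.0072), while KRT18 (-0.25, adjusted p = 0.0214) and KRT19 (-0.28, adjusted p = 0.00792) fell. Markers of other cell types were low, with PTPRC, CD3E, COL1A2 and CDH5 at most 0.05 FPKM, while COL1A1 reached 11.4 and CD68 2.03. COL3A1, a fibroblast collagen below the filter and so not tested, was at 0.17 to 0.18 FPKM in shNC and 0.81 to 0.95 in shHMGA1, and its part in the results was not tested either. The fibroblast list summed to 11.1 to 11.8 FPKM in shNC and 7.56 to 12.2 in shHMGA1, the immune list to 1.93 to 2.27 and 1.71 to 2.41, and the endothelial list to at most 0.2.

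The replication genes were higher in the knockdown nearly throughout, and the rise was moderate. Of the 55 genes, 48 rose, 1 fell and 6 did not pass (limma on log2(FPKM + 1), adjusted p under 0.05 over all genes tested). Among all 14304 genes tested, 16.1% were called higher and 12.3% lower. The median log2 fold change was 0.44 for the replication genes and 0.02 for all genes tested. All 55 passed the filter on low values, and 54 were at 5 FPKM or more in every library. With the filter raised to a mean of 5 FPKM, 2272 of 10320 genes were called higher and 1465 lower. Of the 55 replication genes, 49 were then higher and 1 lower. None of the 55 doubled: the mean level in shHMGA1 ran from 116% to 169% of shNC among the 48 that rose, and 8 of the 55 reached 150%. In bulk RNA, more cells in a given phase of the cycle and more RNA per cell cannot be told apart. The labels do not state that replicates came from separate cultures, so the spread behind each p-value may be only technical.

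In 51 of the 55 genes every shHMGA1 library lay above every shNC library, in 1 (ORC4) every one lay below, and in 3 (GINS4, PRIM2 and RFC1) the groups overlapped. Over all genes tested, the groups were separated upward in 25.4% and downward in 20.5%. The 3 knockdown libraries did not show the rise to the same extent. Taken over the 55 genes, the median of log2(FPKM + 1) above the shNC mean was 0.52 in shHMGA1 replicate 1, 0.36 in replicate 2 and 0.48 in replicate 3. Among the knockdown libraries, replicate 2 held the lowest value of 42 genes and replicate 1 the highest value of 34. In the control libraries the same median lay between -0.02 and 0.02. Transcripts encoded in the mitochondrial genome took 11.4% to 13.5% of FPKM in shNC, 12.5% in shHMGA1 replicate 1 and 8.94% and 8.5% in replicates 2 and 3. With those transcripts left out and the libraries rescaled, 43 of the 55 genes were called higher, with a median of 0.42. In that setting 1962 of all 14289 genes tested were called higher and 1901 lower, with a median of 0.00166.

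**Figure D1:**
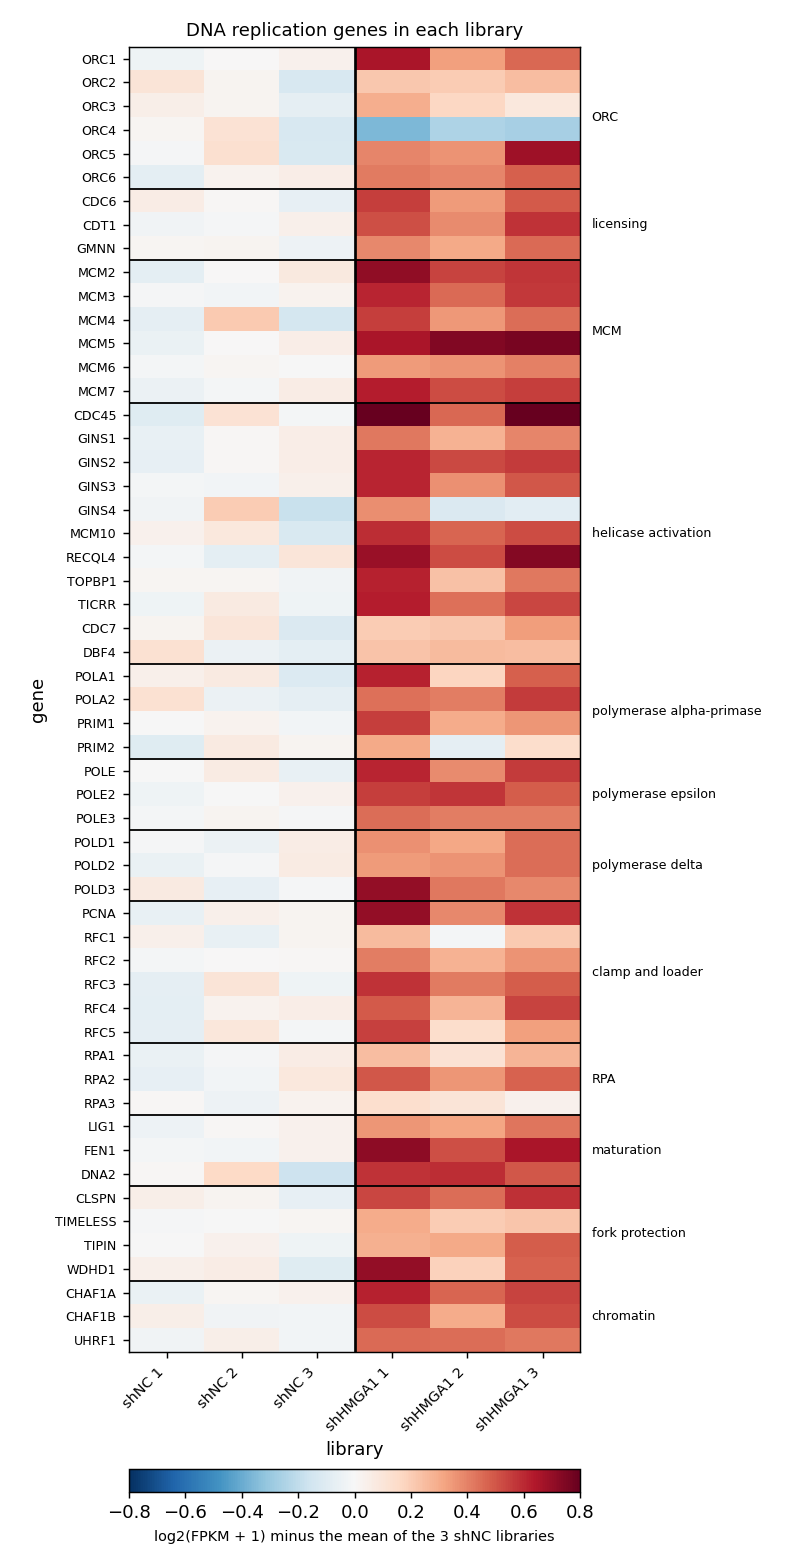
Each row is 1 of the 55 replication genes and each column 1 library, and the colour gives log2(FPKM + 1) minus the mean of the 3 shNC libraries for that gene. The 3 shHMGA1 columns are red for nearly all rows, ORC4 is blue in all 3, and shHMGA1 replicate 2 is paler than the others, with a median of 0.36.

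The authors' deposited table, made from the same libraries with a test that is not named, gave the same 48 genes as higher at an adjusted p under 0.05. Its own column for up- or down-regulation labelled 0 of the 55 as up. The rule behind that label was not examined. Of the 55, the authors' deposited table has 0 as lower and 7 as not passing, with a median log2 fold change of 0.44. For the genes tested here that have an adjusted p there, 20.3% were higher and 18.2% lower. The direction matched that of the FPKM fit in all 55.

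The RefSeq promoters of 47 of the 55 genes were searched for short words of the sites that cell cycle factors bind. No promoter sequence was at hand for DNA2, GINS4, MCM4, MCM5, POLD3, RECQL4, RPA2 and RPA3. They include MCM5, with the highest log2 fold change of the 55, and GINS4 and RPA3, which did not pass the test. Searched on both strands of the 250 bases before the start were 4 words of the E2F site. The first word was TTCGCGC, the second one searched was TTGGCGC, the next of the set was TTCCCGC, and the last word of the set was TTGCCGC. The CCAAT box, which NF-Y binds, was searched by the letters of its name, and the CHR element of genes repressed by the DREAM complex was searched as TTTGAA. At least 1 E2F word stood in 20 of the 47 promoters (42.6%), against 11% of all 27305 promoters and 18.0% of the 9858 promoters of genes tested. A CCAAT box stood in 26 (55.3%), against 33.0% of all promoters and 35.4% of those of genes tested. No promoter of the 47 held the CHR word, which 13.6% of all promoters and 7.88% of those of genes tested held. Both an E2F word and a CCAAT box stood in 13 (27.7%), against 3.82% and 6.97%. The AT content (median 35.2%) was close to that of the genes tested (34.8%) and lower than that of all promoters (42%). Of the 33 E2F matches, 22 began within 100 bases of the start, and no such share was taken over all promoters. Words that overlap in 1 run, as in ORC1, TOPBP1 and MCM6, were counted as separate matches. Most of the 47 windows hold bases that GENCODE 29 places in an exon of some gene, on either strand. In CDT1, GINS3, MCM2, TOPBP1, DBF4, MCM7, POLE3, FEN1 and LIG1 all 250 bases do. The shares are therefore not those of purely upstream sequence. These are matches of letters, and a match is not a bound site.

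Matches differed between genes that rose and did not line up with the calls gene by gene. An E2F word stood in 19 of the 42 matched genes that rose and in ORC3 among the 5 others. The promoters below were chosen because none of their bases lies in an exon of GENCODE 29 and because they differ in pattern. The patterns shown are E2F words with CCAAT boxes, CCAAT boxes alone, and neither. They are RefSeq sequence on GRCh38.p14, read 5′ to 3′ on the gene's strand, and the capitals mark E2F words and CCAAT boxes on either strand. MCM6 (chr2:135876444-135876693, minus strand) has 4 E2F matches and 2 CCAAT boxes. Its E2F matches pair up because TTGGCGC and the reverse complement of TTCGCGC overlap in 1 run. In CHAF1A (chr19:4402390-4402639, plus strand) the box at -38, read on the other strand, overlaps the E2F word at -37. POLA1 (chrX:24693668-24693917, plus strand) has 2 E2F words and 1 CCAAT box. TICRR (chr15:89575219-89575468, plus strand) has 5 CCAAT boxes and no E2F word. PRIM2 (chr6:57314555-57314804, plus strand), which did not pass the test, has neither. CDC7, whose promoter is not printed, has 2 E2F words and no CCAAT box.
MCM6: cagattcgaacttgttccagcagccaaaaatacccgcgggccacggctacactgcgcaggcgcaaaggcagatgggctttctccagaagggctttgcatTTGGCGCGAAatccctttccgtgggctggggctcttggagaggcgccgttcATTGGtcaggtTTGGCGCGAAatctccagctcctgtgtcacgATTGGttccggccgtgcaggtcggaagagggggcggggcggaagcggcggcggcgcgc
CHAF1A: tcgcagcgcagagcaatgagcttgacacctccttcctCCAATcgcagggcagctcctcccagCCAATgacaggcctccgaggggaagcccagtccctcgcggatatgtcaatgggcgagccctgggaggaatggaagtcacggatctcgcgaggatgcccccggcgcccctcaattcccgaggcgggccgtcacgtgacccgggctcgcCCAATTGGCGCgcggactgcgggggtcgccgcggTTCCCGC
POLA1: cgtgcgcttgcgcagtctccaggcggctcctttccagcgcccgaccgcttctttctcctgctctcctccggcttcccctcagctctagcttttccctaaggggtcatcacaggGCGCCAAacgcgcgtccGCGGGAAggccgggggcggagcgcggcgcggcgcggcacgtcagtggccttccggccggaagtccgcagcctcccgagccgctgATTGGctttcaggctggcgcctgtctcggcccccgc
TICRR: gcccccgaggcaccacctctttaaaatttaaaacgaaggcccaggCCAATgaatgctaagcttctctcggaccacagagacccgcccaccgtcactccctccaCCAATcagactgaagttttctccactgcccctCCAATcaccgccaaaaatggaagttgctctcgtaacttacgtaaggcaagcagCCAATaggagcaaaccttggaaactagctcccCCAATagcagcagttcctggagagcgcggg
PRIM2: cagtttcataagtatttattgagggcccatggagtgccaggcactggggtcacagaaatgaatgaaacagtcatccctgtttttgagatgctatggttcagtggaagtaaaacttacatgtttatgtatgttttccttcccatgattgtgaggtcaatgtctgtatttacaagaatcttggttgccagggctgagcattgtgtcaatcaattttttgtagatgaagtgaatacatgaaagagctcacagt

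**Figure D2:**
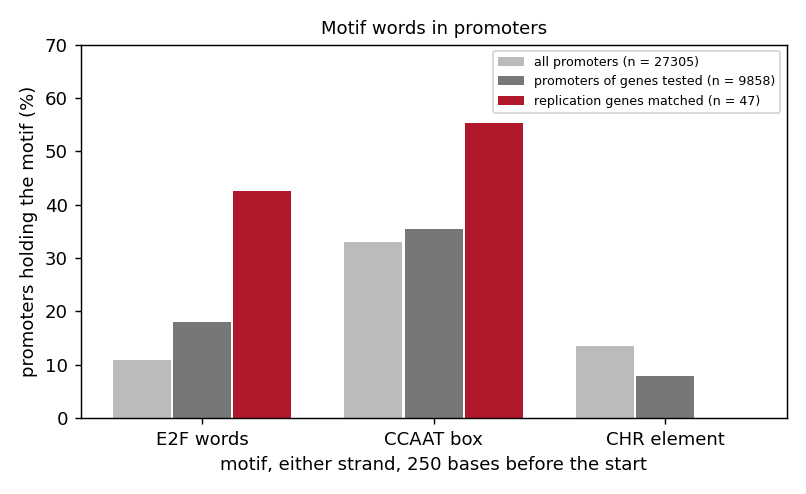
Bars give the percentage of promoters that hold the E2F words, the CCAAT box or the CHR element on either strand of the 250 bases before the start, for all promoters, for those of genes tested and for the 47 replication genes with a promoter sequence. The replication genes stand at 42.6% for E2F words, 55.3% for the CCAAT box and 0 for the CHR element.

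The subunits of ORC, which marks origins, moved in both directions. ORC1, ORC5 and ORC6 rose, ORC4 fell, and ORC2 and ORC3 did not pass. ORC1, the subunit whose level is known to follow the cell cycle, was at 11.3, 11.6 and 11.9 FPKM in shNC and at 18.8, 14.8 and 16.3 in shHMGA1. Its knockdown libraries all lay above the controls (log2 fold change 0.48, SE 0.09, adjusted p = 0.00873). ORC6 went from 28.1 ± 1.37 to 38.1 ± 1.27 FPKM (0.43, adjusted p = 0.00295), and ORC5, an ATP-binding subunit, from 15.98 ± 1.49 to 22.7 ± 3 (0.48, adjusted p = 0.0163). ORC5 was not called without shNC replicate 1 or 3 (adjusted p of up to 0.062) or with no filter on low values.

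ORC4, a core subunit of the same ring (ENSG00000115947.13, chromosome 2 from 147930397 to 148021604 in hg38), was the gene that fell. Its values were 31.2, 33.6 and 28.2 FPKM in shNC and 23.9, 25.9 and 25.5 in shHMGA1, so that the groups were separated downward. Its log2 fold change of -0.29 had an SE of 0.07 (adjusted p = 0.0261), and it was negative in every setting tried, from -0.36 to -0.23. The call was lost without shNC replicate 1 or 2, without shHMGA1 replicate 1 or 3 and with no filter on low values (adjusted p reaching 0.0884). In the authors' deposited table its log2 fold change was -0.15 (adjusted p 0.0994). Exons of ORC4 overlap ACVR2A and MBD5 on the other strand in GENCODE 29, and such reads may not be separable. ORC2 was at 14.5, 13.7 and 12.3 FPKM in shNC and 15.8, 15.6 and 16.1 in shHMGA1. The groups did not overlap, but the gene did not pass (log2 fold change 0.22, 95% interval 0.05 to 0.39, adjusted p = 0.0548). It was called when the filter was a mean of at least 5 FPKM. ORC3 was at 19.5, 19.2 and 17.9 FPKM in shNC and 23.3, 21.3 and 20.0 in shHMGA1 (0.18, interval 0.02 to 0.35, adjusted p = 0.0935). In the controls ORC4 was the most abundant ORC subunit by FPKM, at 31.0 ± 2.73, and in the knockdown it was ORC6.

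**Figure D3:**
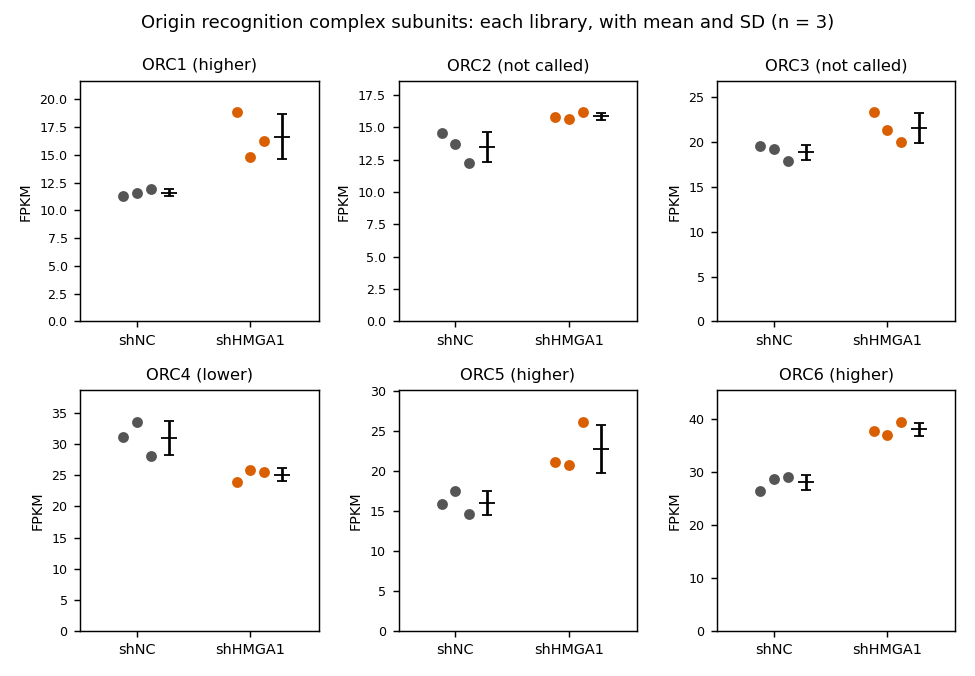
Each panel shows FPKM of 1 subunit of the origin recognition complex in the 3 shNC and the 3 shHMGA1 libraries as points, with the group mean and SD beside them (n = 3), on axes that start at 0. ORC4 is the panel in which the knockdown points, 23.9 to 25.9 FPKM, lie below the control points.

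The licensing factors and their inhibitor rose together. CDT1, which loads MCM, was at 44.2, 44.9 and 46.4 FPKM in shNC and 65.1, 58.9 and 67.95 in shHMGA1 (difference in log2 0.49, SE 0.06, adjusted p = 0.00267). Geminin (GMNN), which binds and blocks CDT1, was at 53.1, 53.3 and 50.99 FPKM in shNC and 68.6, 64.8 and 72.3 in shHMGA1 (0.38, SE 0.05, adjusted p = 0.0038). The groups were separated for both. CDC6, the ATPase that works with ORC, went from 41.3 ± 1.78 to 57.2 ± 4.31 FPKM (0.46, adjusted p = 0.00412). The ratio of CDT1 to GMNN by FPKM was 0.862 ± 0.0418 in shNC and 0.932 ± 0.021 in shHMGA1 (SD, n = 3 each). Its libraries overlapped between the groups by a narrow margin, with 0.9096 in shNC replicate 3 and 0.9087 in shHMGA1 replicate 2.

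All 6 subunits of the MCM2 to MCM7 helicase rose, with a median log2 fold change of 0.56 and separated groups in each. MCM5 (ENSG00000100297.16, chromosome 22 from 35400063 to 35425430 in hg38) had the highest log2 fold change of the 55 genes. It was at 43.9, 45.6 and 47.4 FPKM in shNC and 72.2, 76.9 and 77.9 in shHMGA1 (0.72, SE 0.05, adjusted p = 0.000556). MCM6, whose promoter with its pairs of E2F matches is printed above, had the lowest of the 6. Its values were 47.98, 49.1 and 48.4 FPKM in shNC and 61.7, 62.4 and 64.5 in shHMGA1 (0.37, SE 0.04, adjusted p = 0.00209). The 6 proteins assemble into 1 ring with a copy of each, but their RNA levels were unequal, from 45.7 FPKM for MCM5 to 182 for MCM7 in the controls. The ratio of the highest to the lowest was 3.99 in shNC and 4.3 in shHMGA1. MCM2, MCM3 and MCM7 had log2 fold changes of 0.61, 0.55 and 0.57 (adjusted p from 0.000926 to 0.00149). MCM4 had 0.45 (adjusted p = 0.0166), with 1 control library at 99.7 FPKM against 81.9 and 77.9 in the others. It was not called without shNC replicate 1 or 3 or shHMGA1 replicate 3 (adjusted p of up to 0.0669) or with no filter.

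Among the factors that activate the helicase, 10 of 11 rose. CDC45, which joins MCM and GINS in the moving helicase, was at 16.2, 18.9 and 17.2 FPKM in shNC and 32.5, 24.3 and 31.3 in shHMGA1. Replicate 2 was lower than the other knockdown libraries and still above the controls (log2 fold change 0.71, SE 0.12, adjusted p = 0.00579). The 4 subunits of GINS did not move alike. GINS1, GINS2 and GINS3 rose with log2 fold changes of 0.36, 0.57 and 0.49 (adjusted p from 0.00126 to 0.00692). GINS4 was at 32.2, 37.9 and 28.9 FPKM in shNC and 42.8, 30.3 and 30.8 in shHMGA1, and the groups overlapped. Its log2 fold change was 0.06 (95% interval -0.3 to 0.41, adjusted p = 0.8), with the sign set by shHMGA1 replicate 1 and shNC replicate 3: it was -0.1 without the former and -0.03 without the latter. That interval contains the value of GINS1 but not those of GINS2 and GINS3, and the difference between subunits was not tested.

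RECQL4, a helicase that helps to fire origins, had a log2 fold change of 0.65 (adjusted p = 0.00183). MCM10, which stabilizes the active helicase, had 0.53, and TICRR, the partner of TOPBP1 that brings CDC45 to origins, had 0.53 as well (adjusted p = 0.00327 and 0.00339). TOPBP1 itself had 0.42 (adjusted p = 0.0169). The kinase CDC7 went from 13.1 ± 1.05 to 15.7 ± 0.82 FPKM (0.25, adjusted p = 0.0425) and its activator DBF4 from 23.9 ± 1.92 to 28.4 ± 0.286 (0.24, adjusted p = 0.0315). These were the smallest called changes in the group. CDC7 was called only without shHMGA1 replicate 1 among the fits that left out 1 library (up to 0.137 without shNC replicate 1, 2 or 3 or shHMGA1 replicate 2 or 3), and it was lost with no filter, on the TPM scale, without mitochondrially encoded genes and without the mean-variance trend. DBF4 was not called without shNC replicate 2 or 3 or shHMGA1 replicate 2 or 3 (up to 0.106), nor with no filter, quantile scaling or mitochondrially encoded genes left out. TOPBP1 was not called without shNC replicate 1, 2 or 3 or shHMGA1 replicate 3 (up to 0.0603) or with no filter.

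Of the 10 polymerase and primase subunits, 9 rose. POLA2, the regulatory subunit of polymerase alpha, was at 10.9, 9.62 and 9.41 FPKM in shNC and 13.9, 13.6 and 15.2 in shHMGA1 (difference in log2 0.47, SE 0.08, adjusted p = 0.00594). PRIM1, the catalytic primase subunit, had 0.40 (adjusted p = 0.00801). Exons of PRIM1 overlap NACA and AC117378.1 on the same strand and HSD17B6 on the other in GENCODE 29. PRIM2, the large primase subunit, was at 22.1, 25.02 and 24.2 FPKM in shNC and 29.5, 22.5 and 26.3 in shHMGA1. Those groups overlapped and the gene did not pass (0.12, 95% interval -0.11 to 0.36, adjusted p = 0.389). POLA1, the catalytic subunit of polymerase alpha, had 0.42 (adjusted p = 0.0362). It was called only without shHMGA1 replicate 2 when 1 library was left out, and otherwise had an adjusted p of up to 0.114. It was also lost with no filter and without mitochondrially encoded genes.

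The subunits of polymerase epsilon, which copies the leading strand, all rose. POLE2 was at 10.2, 10.5 and 10.8 FPKM in shNC and 15.9, 16.1 and 15.1 in shHMGA1 (difference in log2 0.54, SE 0.06, adjusted p = 0.00147). POLE3, a histone-fold subunit, was at 48.5, 49.7 and 48.8 FPKM in shNC and 67.0, 65.3 and 65.5 in shHMGA1 (0.42, SE 0.04, adjusted p = 0.00135). The catalytic subunit POLE had 0.52 (adjusted p = 0.00366). In polymerase delta, which copies the lagging strand, POLD3 was the least abundant subunit. It was at 6.69, 6.01 and 6.28 FPKM in shNC and 10.9, 8.8 and 8.57 in shHMGA1 (0.50, SE 0.10, adjusted p = 0.0109). The catalytic subunit POLD1 was at 29.4, 28.7 and 30.9 FPKM in shNC and 38.6, 37.0 and 40.8 in shHMGA1 (0.38, SE 0.06, adjusted p = 0.00462). POLD2 had 0.38 at a far higher level, 119 ± 5.03 FPKM in the controls. Groups were separated for all 6 of these subunits.

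PCNA, the sliding clamp, was the most abundant of the 55 genes. It was at 208, 222 and 220 FPKM in shNC and 353, 283 and 324 in shHMGA1 (difference in log2 0.56, SE 0.08, adjusted p = 0.00409). Of its loader, the RFC complex, the small subunits RFC2 to RFC5 rose and the large subunit RFC1 did not pass. RFC1 was at 33.8, 31.5 and 33.3 FPKM in shNC and 39.3, 32.5 and 38.2 in shHMGA1, with shHMGA1 replicate 2 inside the control range (0.15, 95% interval -0.04 to 0.33, adjusted p = 0.196). It was called without shHMGA1 replicate 2, at 0.23 (adjusted p = 0.0349). RFC2, RFC3 and RFC4 had log2 fold changes of 0.35, 0.49 and 0.43 (adjusted p from 0.00366 to 0.00891). RFC5 had 0.34 (adjusted p = 0.0479) and was called only without shHMGA1 replicate 2 when 1 library was left out (otherwise up to 0.148). It was also lost with quantile or median-of-ratios scaling, without mitochondrially encoded genes, without the mean-variance trend and with no filter. RFC2 to RFC5 also serve in other clamp loaders, while RFC1 belongs to the loader of PCNA.

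The subunits of RPA, which coats single-stranded DNA, had the lowest median of the groups, at 0.21. RPA2 was at 54.1, 55.7 and 59.9 FPKM in shNC and 80.1, 72.6 and 78.95 in shHMGA1 (difference in log2 0.44, SE 0.06, adjusted p = 0.00339). RPA3, the smallest subunit, was at 58.96, 56.98 and 59.7 FPKM in shNC and 64.4, 63.0 and 60.1 in shHMGA1. Its groups were separated by a narrow margin and it did not pass (0.09, 95% interval -0.02 to 0.21, adjusted p = 0.187). RPA1, the large DNA-binding subunit, had 0.21 (adjusted p = 0.0345). It was called only without shHMGA1 replicate 2 when 1 library was left out (otherwise up to 0.112) and was lost with quantile normalisation, without the trend and with no filter. By FPKM the 3 subunits were close to each other, with means from 56.6 to 73.1 in shNC and from 62.5 to 84.8 in shHMGA1.

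All 3 maturation genes rose. FEN1, the nuclease that trims flaps between fragments, was at 83.9, 83.5 and 86.96 FPKM in shNC and 140, 122 and 134 in shHMGA1 (difference in log2 0.63, SE 0.06, adjusted p = 0.00121). Exons of FEN1 overlap FADS2 on the same strand and TMEM258 on the other in GENCODE 29. The ligase LIG1 was at 39.5, 40.9 and 41.8 FPKM in shNC and 52.3, 50.9 and 55.2 in shHMGA1 (0.37, SE 0.05, adjusted p = 0.00366). DNA2, which cuts long flaps, was the least abundant of the 55, at 5.5 ± 0.72 FPKM in shNC and 8.52 ± 0.324 in shHMGA1 (0.56, adjusted p = 0.00655).

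The fork protection genes rose as well. CLSPN (claspin), which links the fork to CHK1, was at 9.94, 9.78 and 9.13 FPKM in shNC and 14.3, 13.4 and 14.9 in shHMGA1 (difference in log2 0.52, SE 0.07, adjusted p = 0.00259). TIMELESS was at 35.5, 35.5 and 35.96 FPKM in shNC and 43.9, 41.2 and 41.8 in shHMGA1, with the groups apart (0.24, SE 0.05, adjusted p = 0.0109). Its partner TIPIN had 0.36 (adjusted p = 0.0101). WDHD1, which ties the helicase to polymerase alpha, had 0.45 (adjusted p = 0.0357), with knockdown libraries at 23.0, 15.8 and 19.5 FPKM. It was called only without shHMGA1 replicate 2 when 1 library was left out (otherwise up to 0.112), and was lost with no filter and without mitochondrially encoded genes.

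Of the genes for chromatin behind the fork, CHAF1A, the large subunit of the histone chaperone CAF-1, was at 25.4, 26.7 and 27.1 FPKM in shNC and 40.99, 36.8 and 38.8 in shHMGA1. The groups did not overlap (log2 fold change 0.54, SE 0.06, adjusted p = 0.00158). UHRF1, which brings the maintenance methyltransferase to newly copied DNA, was at 39.7, 41.8 and 39.8 FPKM in shNC and 55.6, 55.5 and 54.5 in shHMGA1 (0.44, SE 0.05, adjusted p = 0.00147). The 3 knockdown libraries lay within 54.5 to 55.6 FPKM. CHAF1B had 0.45 (adjusted p = 0.00677).

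**Figure D4:**
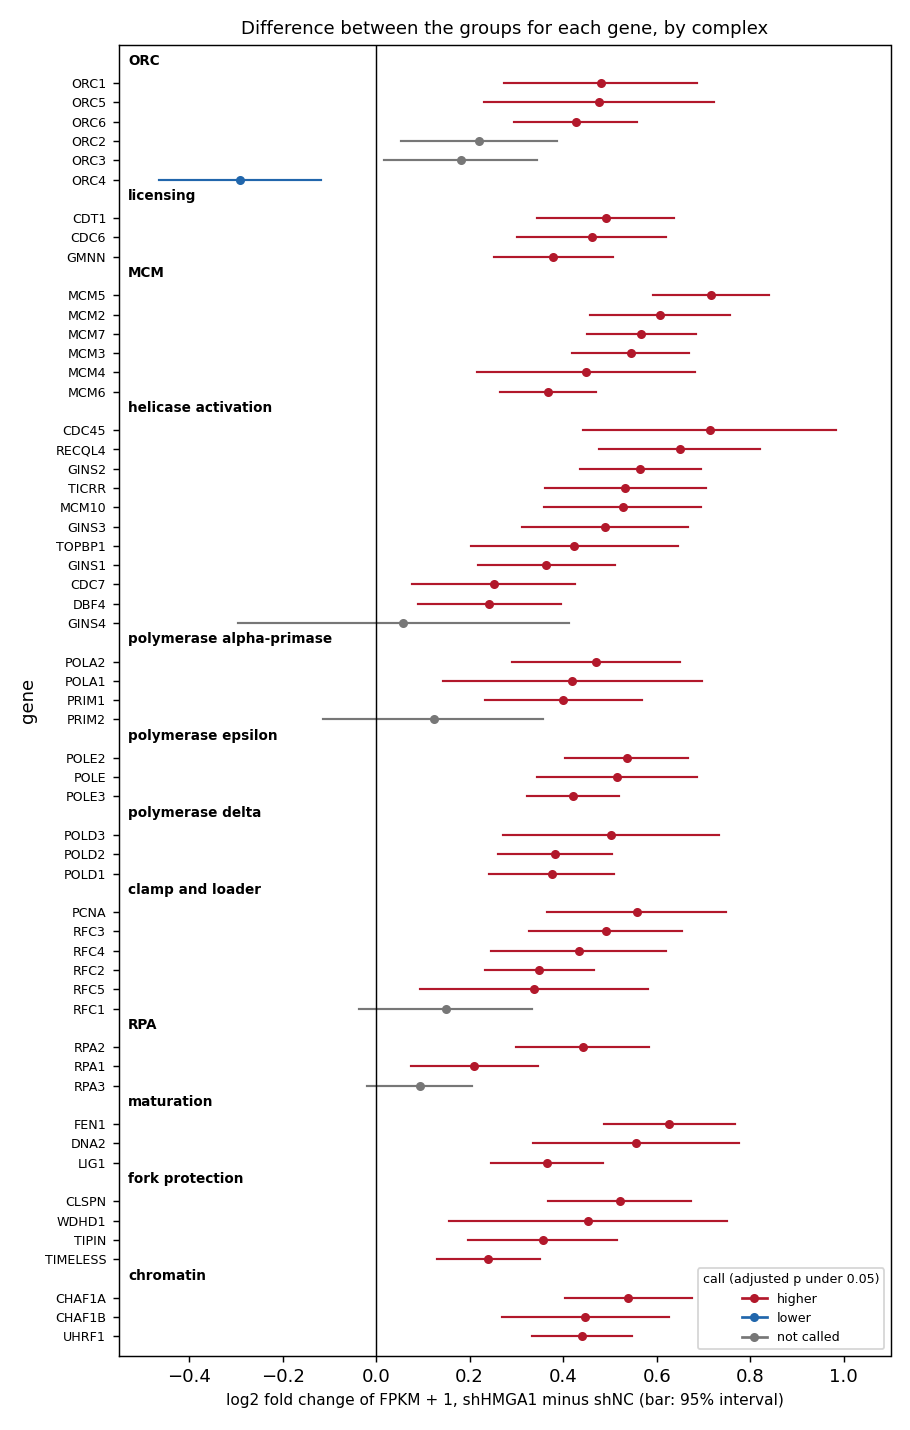
Each point is the log2 fold change of FPKM + 1 (shHMGA1 minus shNC) of 1 gene, with its 95% interval, ordered within its complex and coloured by its call. Genes called higher lie between 0.21 and 0.72, ORC4 lies at -0.29, and the 6 grey genes lie between 0.06 and 0.22.

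**Figure D5:**
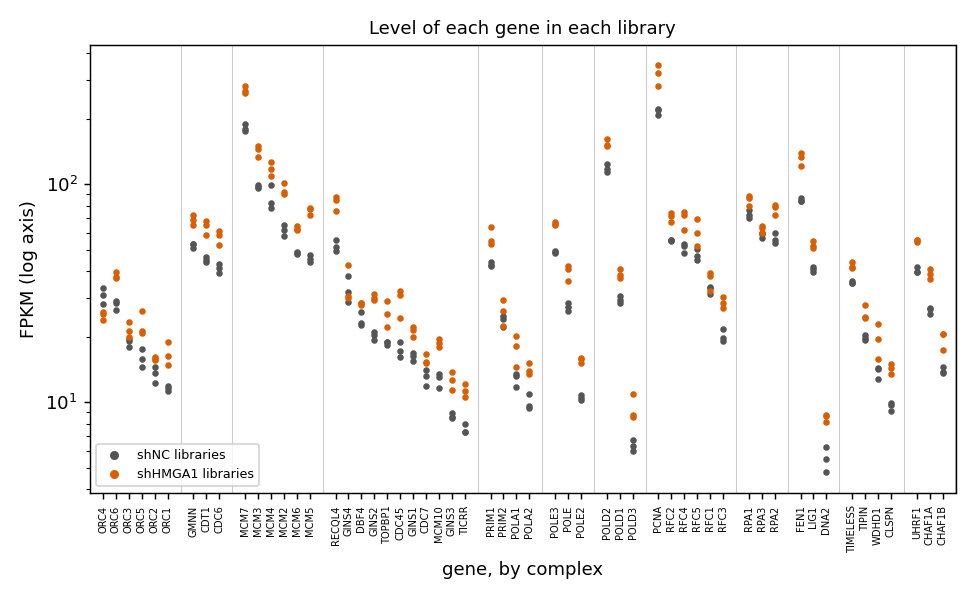
Each column is 1 gene, grouped by complex, and each point its FPKM in 1 library on a log axis (3 shNC, 3 shHMGA1). Levels run from 4.78 FPKM for DNA2 to 353 for PCNA, and genes whose proteins share a complex can differ in level by over an order of magnitude, as POLD2 and POLD3 do.

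The calls did not split by complex alone. Each of ORC, GINS, primase, the clamp loader and RPA held a subunit that rose and a subunit that did not pass, and the differences between subunits were not tested. The 48 calls included 39 that held in all 17 other settings. The other 9 (ORC5, MCM4, TOPBP1, CDC7, DBF4, POLA1, RFC5, RPA1 and WDHD1) were each lost when at least 1 library was left out, as given above. Their log2 fold changes stayed positive in every setting. Exons of 26 of the 55 genes overlap another gene in GENCODE 29, 7 of them on the same strand, and the strand setting of the counting is not given. Those 7 are POLA2, PRIM1, POLD1, POLD3, FEN1, TIPIN and CHAF1B. Rows for pseudogenes named after these genes (the symbol followed by P, with or without a number) were found for 3 (DBF4, FEN1 and RPA2). They reached at most 0.08 FPKM, and pseudogenes under other names were not searched for.

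Replication factors outside the 55 were higher in part. Of 32 further genes (polymerase accessory subunits, alternative clamp loaders, RNase H2, histone chaperones, topoisomerases, checkpoint and origin factors), 18 rose and 14 did not pass, beside 16.1% called higher among all genes tested, and the median log2 fold change was 0.30. With limma 0 of the 32 fell, and 1 (POLD4) was lower at an unadjusted p under 0.05. The authors' deposited table has 25 of them as higher and 1 (POLD4) as lower, beside 20.3% and 18.2% of all genes with an adjusted p there. The highest changes were those of RNASEH2B, a subunit of the enzyme that removes ribonucleotides from DNA, and of DSCC1, of the loader that links clamp and cohesin. RNASEH2B went from 21.6 ± 1.72 to 35.1 ± 3.77 FPKM (0.68, SE 0.09, adjusted p = 0.00334) and DSCC1 from 22.4 ± 1.02 to 33.6 ± 2.6 (0.56, SE 0.07, adjusted p = 0.0026). The lowest were those of POLD4, the fourth subunit of polymerase delta, and TOP1, which relaxes DNA ahead of the fork. POLD4 was at 28.8, 21.1 and 23.1 FPKM in shNC and 17.2, 21.4 and 18.0 in shHMGA1, with 1 knockdown library inside the control range (-0.34, 95% interval -0.64 to -0.05, adjusted p = 0.0785). TOP1 had -0.06 (interval -0.18 to 0.07, adjusted p = 0.449). The count of 18 was 10 without shHMGA1 replicate 3.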

How the data were processed

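RNA from cells labelled HT29 with a control hairpin (shNC) or a hairpin against HMGA1 (shHMGA1) was sequenced in 3 libraries each, from poly-A RNA on an MGI instrument, per the labels' protocols. Groups and replicate numbers come from the sample titles. Per the submitters' processing notes, hg38 was the genome build. The sources used here do not give the aligner, counting tool, strand setting or annotation.

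Per the file headers, the deposited table holds FPKM made by the authors, rounded to 2 decimals. The same table, as deposited, gives a mean signal per group on a normalized scale, the log2 fold change, the p-value and the adjusted p. It also has a column that labels up- or down-regulation. Depth per library is unknown, so no counting intervals are given. Genes listed at 0 numbered 5747 to 7116 per library.

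The test was limma 3.58.1 (R 4.3.3) on log2(FPKM + 1), two-sided, its eBayes step fitted with a mean-variance trend. It covered the 14304 genes whose mean reached 1 FPKM, with Benjamini-Hochberg adjustment over that whole set. Fold changes are shHMGA1 minus shNC and understate changes of low genes. Rose and fell mean an adjusted p under 0.05. On simulated data for this comparison (14304 genes, 200 changed), 90% of log2 fold changes of 1 and 66% of those of 0.5 were recovered, with 8 unchanged genes called. The 200 were drawn from genes at 5 FPKM or more and are fewer than the 4065 genes called in the data. The recovered shares therefore hold for that setting only. Intervals are limma's 95% intervals, not adjusted for the number of genes. Exact permutation used scipy 1.17.1 in Python 3.11.15.

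The genes, the further lists, the tests and the motif words were chosen with earlier results of these data known. All 55 genes are named. Values in every library are printed for the highest and the lowest log2 fold change in each complex, for genes that fell and for genes not called. Of the further factors, the 2 highest and 2 lowest are named. All 55 IDs were found in GENCODE 29, 17 in the same version, which gave coordinates and exon overlaps. RefSeq promoter sequences (GRCh38.p14) were matched by symbol. Alternatives numbered 17. Of these, 6 each dropped 1 library. The others changed the pseudocount (0.1 or 5), the filter (none, or 5 FPKM), the scaling (quantile, TPM, median of ratios, or mitochondrially encoded genes dropped) or the model (robust eBayes, no trend, replicate number as block).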

Additional observations from a re-analysis of the deposited data

How the results depend on the processing

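The 48 genes called higher were between 39 and 49 in the 11 settings that kept all libraries, and 39 to 47 with 1 library left out. HMGA1 stayed lower in all 17. The 1 gene called lower (ORC4) was 0 with no filter on low values and ranged from 0 to 1 with a library left out. The 18 further factors called higher ranged from 10 to 17 with a library left out, and 0 fell in any setting. The counts over all genes were less steady: 2307 were higher and 1758 lower, 1478 were higher with no filter on low values, and with a library left out 1094 to 2621 were higher and 947 to 1962 lower. Without mitochondrially encoded genes 50.8% of calls were higher, against 56.8%. No scaling moved the median of all genes by over 0.1. GINS4 changed sign with a library left out, from -0.1 to 0.16. The cause of these shifts was not tested. The replicate numbers did not pair the libraries (correlations of deviations for the same number of 0.0202, -0.0364 and 0.041). With them as a block 45 of the 55 genes were higher and 1 lower (CDC7, DBF4 and RFC5 were not called), 19 of the 32 further factors were higher and 0 lower, 1913 of all genes were higher and 1495 lower, and HMGA1, whose log2 fold change of -0.67 a block cannot alter in this balanced design, had an adjusted p of 0.00587 in limma, against 0.0018. Depth is unknown, which limits what can be said of the genes lowest by FPKM, DNA2, POLD3 and TICRR. FPKM is scaled for length, so these need not be the genes with the fewest fragments. In the authors' deposited shNC levels POLE2 (437.7) and GINS3 (464.5) lay below DNA2 (486.5).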
